A study of Homo sapiens with 18 samples.

Results

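Keratins form the intermediate filaments of epithelial cells, and chromatin accessibility at 8 of their genes (KRT8, KRT7, KRT18, KRT19, KRT80, KRT23, KRT5 and KRT17) was compared across 6 human ovarian cancer cell lines by ATAC-seq, in which the transposase Tn5 inserts adapters into open chromatin. The genes were taken by name, out of 19517 protein-coding genes with a canonical transcript start. Their windows were those that overlapped the annotated span of a gene extended by 10 kb on each side. This gave 39 of the 89428 deposited windows of 1 kb. The rule used no accessibility value, but each deposited window exceeded 2 FPKM (fragments per kilobase of window, scaled to the mapped reads of the library) in at least 2 of the 18 libraries, so windows closed in every line are absent from these counts.

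Every line was grown without treatment for these libraries as far as the labels tell, and 3 replicate libraries were made per line. A2780, platinum-sensitive and labelled endometrial/ovarian, was paired with CP70, a platinum-resistant line derived from it in culture. PEA1 (sensitive) and PEA2 (resistant) were ovarian lines from the same patient with high-grade serous disease, as were PEO1 (sensitive) and PEO4 (resistant) from another patient. Each line is a single established culture, the labels do not say whether the replicates were separate cultures, and p-values over libraries measure only the spread between libraries. These are bulk libraries, so fewer cells with an open window and less opening per cell cannot be told apart.

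Filaments of simple epithelium, the one-layered lining of ducts, glands and the Müllerian tract, are assembled from a type II keratin and a type I keratin in equal amounts. KRT8 (type II) with KRT18 (type I) is the pair found earliest and most widely in such cells, and KRT7 (type II) and KRT19 (type I) are added in ductal and serous epithelium. KRT80 is a type II keratin tied to cell junctions and late differentiation, and KRT23 is a type I keratin of several glandular epithelia. KRT5 (type II) and KRT17 (type I) are known instead from the basal layer of stratified epithelium and from skin appendages. The type II genes lie together on chromosome 12 and the type I genes on chromosome 17, except KRT18, which lies beside KRT8 on chromosome 12.

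The 250 bases before the canonical start are shown for KRT5, whose start window was open in PEO1 and changed most among the starts in PEO4 against PEO1, read from GRCh37 (hg19) 5′ to 3′ on the strand of the gene. Capitals, here and in the stretches that follow, mark matches, on either strand, to any of 4 motifs, and overlapping matches run together. The first, TATAAA, is the element bound by the general factor TBP. The second, GGGCGG, is the box bound by SP1. The third, TGANTCA, is the site of the AP-1 factors. The last, GCCNNNGGC, is the site of the AP-2 factors.
KRT5 promoter, chr12:52914179-52914428, minus strand: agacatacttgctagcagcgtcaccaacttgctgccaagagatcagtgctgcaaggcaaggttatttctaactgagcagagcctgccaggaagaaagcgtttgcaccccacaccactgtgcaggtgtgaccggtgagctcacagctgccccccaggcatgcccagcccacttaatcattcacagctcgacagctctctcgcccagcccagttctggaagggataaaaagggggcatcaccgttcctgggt

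Matches are letters and not measured binding. The KRT5 stretch had no match to any of these motifs, and its GC content was 56%, against a median of 63.2% over all promoters of the same length. Of 19504 promoters, 59.5% held GGGCGG, 25.8% held GCCNNNGGC and 9.23% held TATAAA. Neighbouring windows share 100 bases, and the shared stretch is shown for 3 places away from the keratin starts where lines differed, with capitals as above.
KRT7 intron, chr12:52637401-52637500, plus strand: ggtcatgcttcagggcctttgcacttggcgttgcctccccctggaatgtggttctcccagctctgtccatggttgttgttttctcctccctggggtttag
KRT15 promoter near KRT19, chr17:39678301-39678400, plus strand: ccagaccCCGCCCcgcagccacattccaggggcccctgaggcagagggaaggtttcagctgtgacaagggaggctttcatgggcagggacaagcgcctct
KRT80 upstream, chr12:52587901-52588000, plus strand: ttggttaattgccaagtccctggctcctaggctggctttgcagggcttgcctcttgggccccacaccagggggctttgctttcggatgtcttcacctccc

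The KRT7 stretch begins an intronic window, the KRT15 stretch is shared by a pair of windows at an annotated start of KRT15, a neighbouring type I keratin gene of basal cells, and the KRT80 stretch is shared by both upstream windows that were called. The first and the last held no match, and the KRT15 stretch held 1 GGGCGG match, which 17.6% of 38057 stretches shared by neighbouring deposited windows also held.

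Windows were few for the basal genes, most numerous for KRT8 and densest along the tiling grid for KRT19. KRT8 (ENSG00000170421, chr12:53290971-53343738, minus strand) held 12 windows out of 82 on the tiling grid, because its annotated span reaches into KRT18. KRT18 (ENSG00000111057, chr12:53342655-53346690, plus strand) held 4 of 28, all 4 also within the reach of KRT8. KRT19 (ENSG00000171345, chr17:39679869-39684560, minus strand) held 11 of 29, of which 5 were promoter windows of KRT15. KRT7 (ENSG00000135480, chr12:52626304-52645970, plus strand) held 6 of 45 and KRT80 (ENSG00000167767, chr12:52562780-52585798, minus strand) 6 of 49. KRT23 (ENSG00000108244, chr17:39078952-39093898, minus strand) held 2 of 40. KRT5 (ENSG00000186081, chr12:52908359-52914314, minus strand) and KRT17 (ENSG00000128422, chr17:39775694-39781094, minus strand) held 1 of 30 each. The KRT17 start window did not reach the level of the table. Promoter windows, which overlapped the stretch from 1 kb before to 100 bp after an annotated start of the gene, numbered 15, and 19 were distal.

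Library totals implied by the values ran from 8972042 reads in a PEO1 library to 60495462 in an A2780 library. The share of reads inside the deposited windows was 39.9% ± 0.948 (SD, n = 3) in PEO1 and 34.4% ± 1.51 in PEO4, against 18.9% ± 1.82 in PEA2, 15.2% ± 2.11 in PEA1, 13.1% ± 2.15 in CP70 and 9.25% ± 0.832 in A2780. The median window rose with it from 0.684 FPKM in A2780 to 2.87 FPKM in PEO1. Levels are therefore given in FPKM and also as fold over the median window of the same library. The second scale cancels a factor common to all windows of a library, but it rests on that library's median window. Of all deposited windows 37.9% were in the table only because of PEO libraries, so that median need not be alike between lines.

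KRT8 reached the highest mean of any keratin start, in PEO4. Its start window (chr12:53298001-53299000, exon 1 and part of intron 1) held 0.872, 0.608 and 0.562 FPKM in A2780, 1.36, 1.68 and 1.38 in CP70, 2.5, 2.8 and 2.4 in PEA1, 1.65, 1.68 and 1.38 in PEA2, 6.98, 6.89 and 8.14 in PEO1, and 12.7, 12.4 and 10.4 in PEO4. PEO4 lay above all other libraries and PEO1 above the remaining lines, and PEA2 and CP70 overlapped. As fold over the library median, KRT8 was 5.24 ± 0.541 (SD, n = 3) in PEO4, 2.56 ± 0.308 in PEO1, 2.14 ± 0.136 in PEA1, 1.76 ± 0.206 in CP70, 0.987 ± 0.176 in A2780 and 0.898 ± 0.131 in PEA2. Among the start windows of all genes in the table it stood at percentile 72.8 in PEO4 and 50.1 in PEO1, against 6.07 in A2780. It was the only keratin start whose 6 PEO libraries exceeded the other 12 on the median-relative scale.

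The KRT18 start, the partner of KRT8, was highest in the PEO lines too, with CP70 above PEA2. Its window (chr12:53342101-53343100) held 1.1, 0.744 and 0.744 FPKM in A2780, 1.97, 2.15 and 1.84 in CP70, 2.66, 2.18 and 2.11 in PEA1, 1.54, 0.983 and 1.29 in PEA2, 5.77, 7.77 and 4.57 in PEO1, and 9.07, 8.83 and 6.53 in PEO4. PEO4 and PEO1 overlapped, as did PEA1 and CP70, and PEA2 and A2780. Relative to the library median, KRT18 was 3.61 ± 0.606 in PEO4, 2.38 ± 0.186 in CP70, 2.1 ± 0.541 in PEO1, 1.93 ± 0.238 in PEA1, 1.25 ± 0.217 in A2780 and 0.719 ± 0.108 in PEA2, so that CP70 then overlapped PEO1. Reads over KRT8 and KRT18 were kept only where they aligned uniquely, and both genes are known for many processed copies elsewhere in the genome, so their exonic values may be lowered in every line.

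KRT7, the type II keratin of ducts and of the serous epithelium, was open at its start in the PEO lines. The window (chr12:52626601-52627600) held 1.13, 0.766 and 0.793 FPKM in A2780, 0.379, 1.5 and 2.05 in CP70, 0.705, 0.685 and 0.911 in PEA1, 0.934, 2.31 and 1.51 in PEA2, 6.88, 5.93 and 5.02 in PEO1, and 4.65, 4.61 and 3.49 in PEO4. PEO1 lay above PEO4 and PEO4 above the rest, while A2780, CP70, PEA1 and PEA2 overlapped with their neighbours in the order. CP70 replicate 1 rested on 5 reads here. On the median-relative scale KRT7 was 2.07 ± 0.272 in PEO1, 1.88 ± 0.284 in PEO4 and 0.651 ± 0.186 in PEA1. By their means the order there was PEO1, PEO4, CP70, A2780, PEA2 and PEA1, and each line overlapped the next, so the PEO lines did not stand apart.

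An intronic KRT7 window (chr12:52637401-52638400), the highest distal window of that gene, ordered the lines differently. It held 0.767, 1.04 and 0.793 FPKM in A2780, 0.758, 1.44 and 1.38 in CP70, 5.03, 5.26 and 4.41 in PEA1, 3.24, 2.83 and 3.64 in PEA2, 6.27, 8.55 and 6.8 in PEO1, and 8.78, 10.2 and 8.37 in PEO4. Every PEA and PEO library lay above every A2780 and CP70 library. PEA1 reached 4.08 ± 0.0907 times its library median, close to the 4.05 ± 0.427 of PEO4, although its KRT7 start stood below the median.

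KRT19, the smallest keratin and a type I partner in ductal cells, had its start window (chr17:39683701-39684700) highest in PEO4. It held 0.976, 0.789 and 0.711 FPKM in A2780, 0.682, 1.8 and 1.51 in CP70, 0.897, 1.15 and 0.863 in PEA1, 1.81, 2.31 and 1.06 in PEA2, 5.46, 5.32 and 3.9 in PEO1, and 9.01, 9.17 and 7.37 in PEO4. PEO4 was above PEO1, PEO1 above the other lines, and the remaining lines overlapped. The median-relative value was 3.78 ± 0.424 in PEO4 and 1.7 ± 0.263 in PEO1, and from 0.806 ± 0.0822 in PEA1 to 1.59 ± 0.688 in CP70 among the other lines.

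Higher by their means than the KRT19 start in PEO4 and PEA2 was a pair of windows downstream of KRT19, chosen after their values were seen, that lie at an annotated KRT15 start. The first (chr17:39677401-39678400) held 0.907, 0.428 and 0.595 FPKM in A2780, 1.14, 1.02 and 1.3 in CP70, 0.641, 1.15 and 0.767 in PEA1, 3.08, 2.77 and 2.26 in PEA2, 4.35, 6.63 and 5.91 in PEO1, and 9.94, 11.8 and 8.87 in PEO4. In all 3 pairs the resistant line lay above the sensitive line without overlap. The neighbour (chr17:39678301-39679300) averaged 10.8 ± 1.3 FPKM in PEO4, 4.76 ± 1.12 in PEO1, 2 ± 0.197 in PEA2 and 0.601 ± 0.245 in PEA1, with 0.73 ± 0.123 in A2780 and 1.05 ± 0.383 in CP70. The window over the KRT15 canonical start itself stayed lower, at 1.59 ± 0.385 FPKM in PEO4 and 2.23 ± 0.425 in PEO1.

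**Figure D1:**
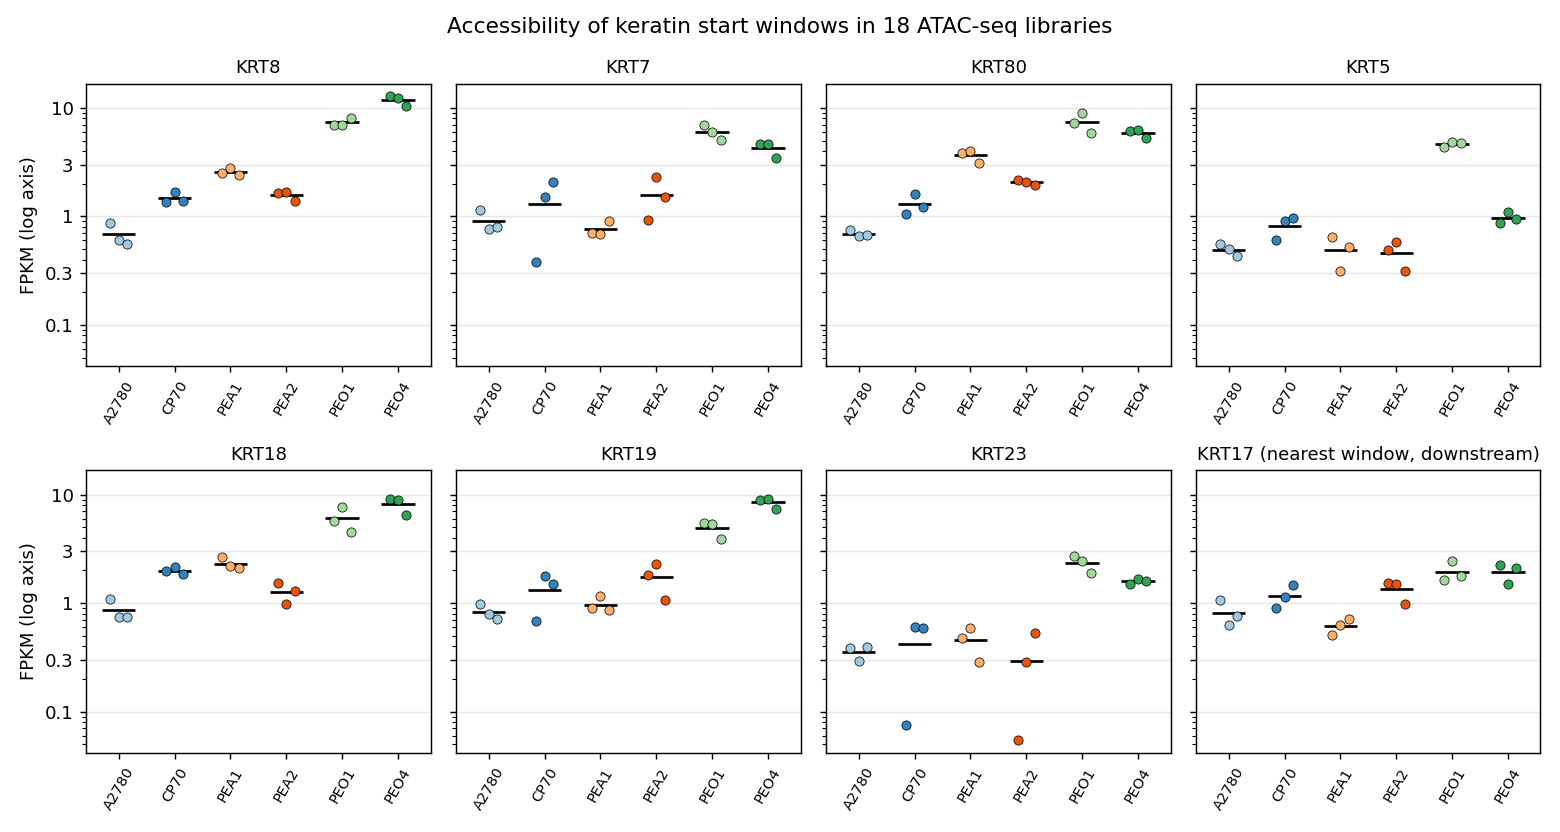
FPKM (log axis) of 7 keratin start windows and of the KRT17 window nearest its start in each of the 18 libraries, by line, with 1 point per library and a bar at the line mean. The PEO libraries lie above all others at 6 of the 7 starts, and KRT5 is high in PEO1 alone, at 4.65 FPKM on average against 0.974 in PEO4.

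KRT80, the junction-associated type II keratin, was open at its start (chr12:52585201-52586200) in the PEO lines and in PEA1. The libraries held 0.75, 0.653 and 0.678 FPKM in A2780, 1.06, 1.62 and 1.21 in CP70, 3.88, 4.02 and 3.12 in PEA1, 2.14, 2.08 and 1.95 in PEA2, 7.28, 8.99 and 5.91 in PEO1, and 6.1, 6.24 and 5.23 in PEO4. PEO1 and PEO4 overlapped, and the other lines followed each other without overlap in the order PEA1, PEA2, CP70 and A2780. Relative to the library median PEA1 was highest at 3.04 ± 0.078, with PEO4 at 2.6 ± 0.231 and PEO1 at 2.57 ± 0.507.

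Upstream of KRT80 the pattern changed. The window at chr12:52587901-52588900 held 1.15, 0.473 and 0.645 FPKM in A2780, 1.36, 1.14 and 1.34 in CP70, 0.545, 0.436 and 1.2 in PEA1, 0.44, 0.52 and 0.177 in PEA2, 1.72, 1.75 and 1.34 in PEO1, and 7.21, 8.59 and 6.72 in PEO4. PEO4 stood apart, and the other 5 lines overlapped from one to the next in the order of their means. PEO4 reached 3.33 ± 0.425 times its library median there, against 0.557 ± 0.0678 in PEO1. At the next window upstream (chr12:52588801-52589800) PEO4 averaged 4.48 FPKM and overlapped PEO1.

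KRT23, a glandular type I keratin, had the lowest mean of the 7 start windows in every line but PEO4, where KRT5 was lower. Its window (chr17:39093301-39094300) held 0.384, 0.293 and 0.397 FPKM in A2780, 0.0758, 0.599 and 0.586 in CP70, 0.481, 0.592 and 0.288 in PEA1, 0.055, 0.289 and 0.532 in PEA2, 2.73, 2.44 and 1.89 in PEO1, and 1.51, 1.68 and 1.59 in PEO4. PEO1 lay above PEO4, PEO4 above the rest, and the other 4 lines overlapped. CP70 replicate 1 and PEA2 replicate 1 rested on 1 read each. No line mean reached the library median there, and PEO1 came nearest at 0.82 ± 0.128. The neighbouring window over exon 2 (chr17:39092401-39093400), the only distal KRT23 window, averaged 2.65 ± 0.685 FPKM in PEO1, 1.41 ± 0.24 in PEO4 and 0.345 ± 0.0655 to 0.541 ± 0.145 in the other lines.

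KRT5, the type II keratin of basal cells, was open in PEO1. The KRT5 start window (chr12:52913701-52914700) held 0.558, 0.496 and 0.43 FPKM in A2780, 0.606, 0.898 and 0.963 in CP70, 0.641, 0.312 and 0.527 in PEA1, 0.495, 0.578 and 0.311 in PEA2, 4.35, 4.8 and 4.79 in PEO1, and 0.872, 1.1 and 0.946 in PEO4. Every PEO1 library was above every other library, PEO4 overlapped CP70, and A2780, PEA1 and PEA2 overlapped. Relative to the library median PEO1 was at 1.62 ± 0.124 and PEO4 at 0.432 ± 0.0531.

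For KRT17, a type I keratin of basal cells and of wound response, the table held a single window (chr17:39774601-39775600), which lies just beyond the 3′ end of the gene. It ran from 1.49 to 2.27 FPKM in PEO4, 1.62 to 2.44 in PEO1, 0.976 to 1.54 in PEA2, 0.909 to 1.47 in CP70, 0.631 to 1.06 in A2780 and 0.513 to 0.719 in PEA1. PEO1 and PEO4 overlapped, and on the median-relative scale the highest mean was that of CP70, at 1.4 ± 0.332.

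Across the 39 windows, all 6 PEO libraries exceeded all 12 others at 25 windows (64.1%), against 35.5% of all deposited windows. Of the 39 windows, 26 (66.7%) exceeded 2 FPKM in fewer than 2 of the 12 other libraries and were in the table only because of PEO libraries, as were 37.9% of all windows, and 14 of the 25 were among them, so the count is a description that the filter shapes. These were 11 of 15 promoter windows and 10 of 19 distal windows, with KRT15 promoter windows as the remainder. On the median-relative scale this was so at 1 of the 39 windows, the KRT8 start, and at 7.53% of all windows. PEO4 had the highest line mean at 23 windows in FPKM and at 16 on the median-relative scale, and PEO1 at 15 and 8. A2780 was lowest at 18 windows in FPKM, whereas PEA2 was lowest at 19 on the median-relative scale. The share of reads in windows moves with the FPKM order, and its part in it was not tested beyond this second scale.

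Promoter windows exceeded distal windows in every line by their means. The 15 promoter windows averaged 4.89 ± 0.666 FPKM (SD, n = 3) in PEO4, 4.66 ± 0.54 in PEO1, 1.55 ± 0.0432 in PEA1, 1.39 ± 0.108 in PEA2, 1.19 ± 0.212 in CP70 and 0.684 ± 0.11 in A2780. The 19 distal windows averaged 3.2 ± 0.211, 2.61 ± 0.297, 1.12 ± 0.00475, 0.97 ± 0.0136, 0.949 ± 0.177 and 0.659 ± 0.0944 FPKM in the same order of lines. In A2780 the gap was smaller than the spread of the libraries. Counted by the window's centre rather than by overlap, 11 windows were promoter and 23 distal, and PEO4 then averaged 3.93 ± 0.553 FPKM at promoters and 3.96 ± 0.343 at distal windows, so the gap in that line depended on the definition. The other gaps narrowed as well, to 4.31 ± 0.651 against 3.14 ± 0.285 FPKM in PEO1, 1.44 ± 0.0197 against 1.24 ± 0.025 in PEA1, 1.29 ± 0.0844 against 1.09 ± 0.0322 in PEA2 and 1.08 ± 0.264 against 1.04 ± 0.151 in CP70, the last smaller than the spread of the libraries.

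**Figure D2:**
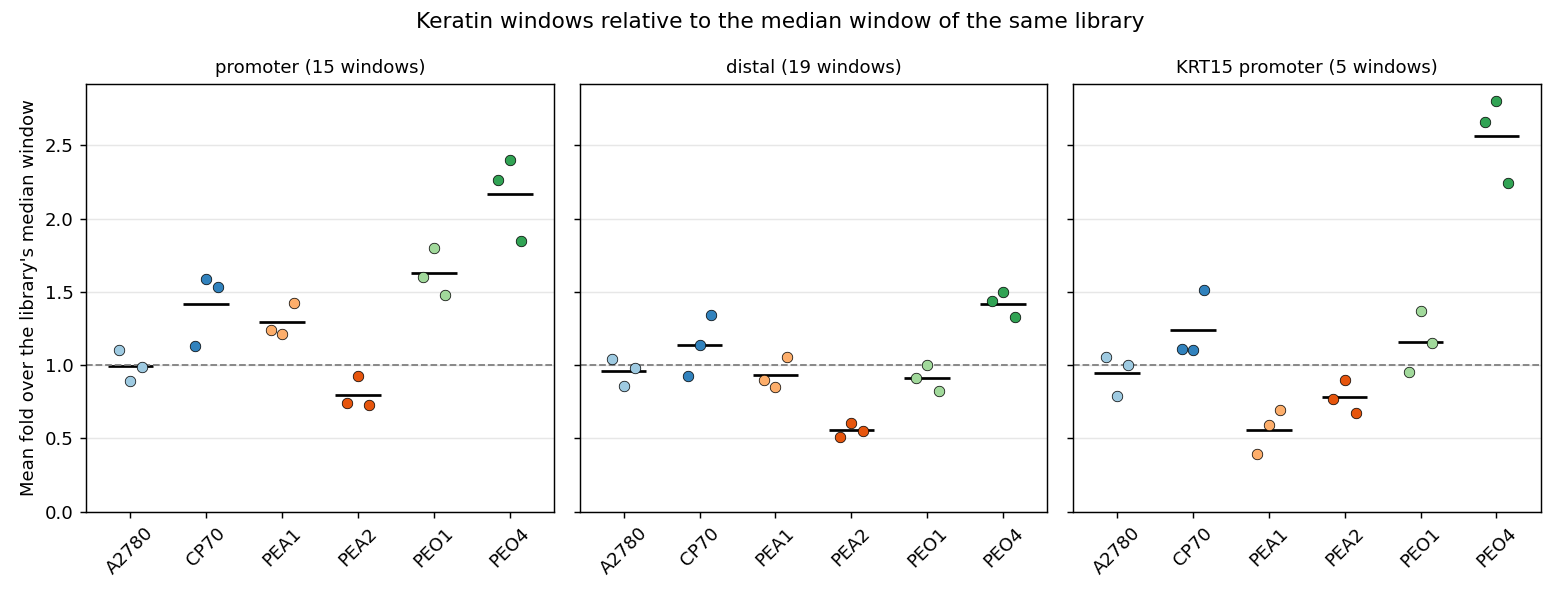
Mean fold over the library's median window for the 15 promoter windows, the 19 distal windows and the 5 KRT15 promoter windows, with 1 point per library and a bar at the line mean. The dashed line is the median window of each library, and PEO4 lies above it in each panel, with means of 2.17, 1.42 and 2.57, while the PEA2 means lie below it in each.

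Along each locus the lines differed in where they were open. At KRT8 the start and the intron 1 window next to it (chr12:53297101-53298100) were the highest in PEO4, at 11.8 and 8.17 FPKM. A cluster of 3 windows about an alternative KRT8 start some way upstream was highest in PEO1, with 5.26 ± 0.408 FPKM in PEO1 and 3.74 ± 0.747 in PEO4 at chr12:53319601-53320600. One window of that cluster (chr12:53318701-53319700) held 4.05, 4.45 and 4.46 FPKM in PEO1 and 1.22, 1.73 and 1.34 in PEO4, without overlap. The highest distal window of KRT18 (chr12:53339401-53340400), between the genes, held 3.32 ± 0.686 FPKM in PEO4 and 2.72 ± 0.939 in PEO1, which overlapped, and 0.541 ± 0.0682 to 0.974 ± 0.354 elsewhere. The distal window of KRT19 with the highest mean, upstream at chr17:39691801-39692800, reached 2.43 ± 0.371 FPKM in PEO4 and 1.6 ± 0.228 in PEO1.

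**Figure D3:**
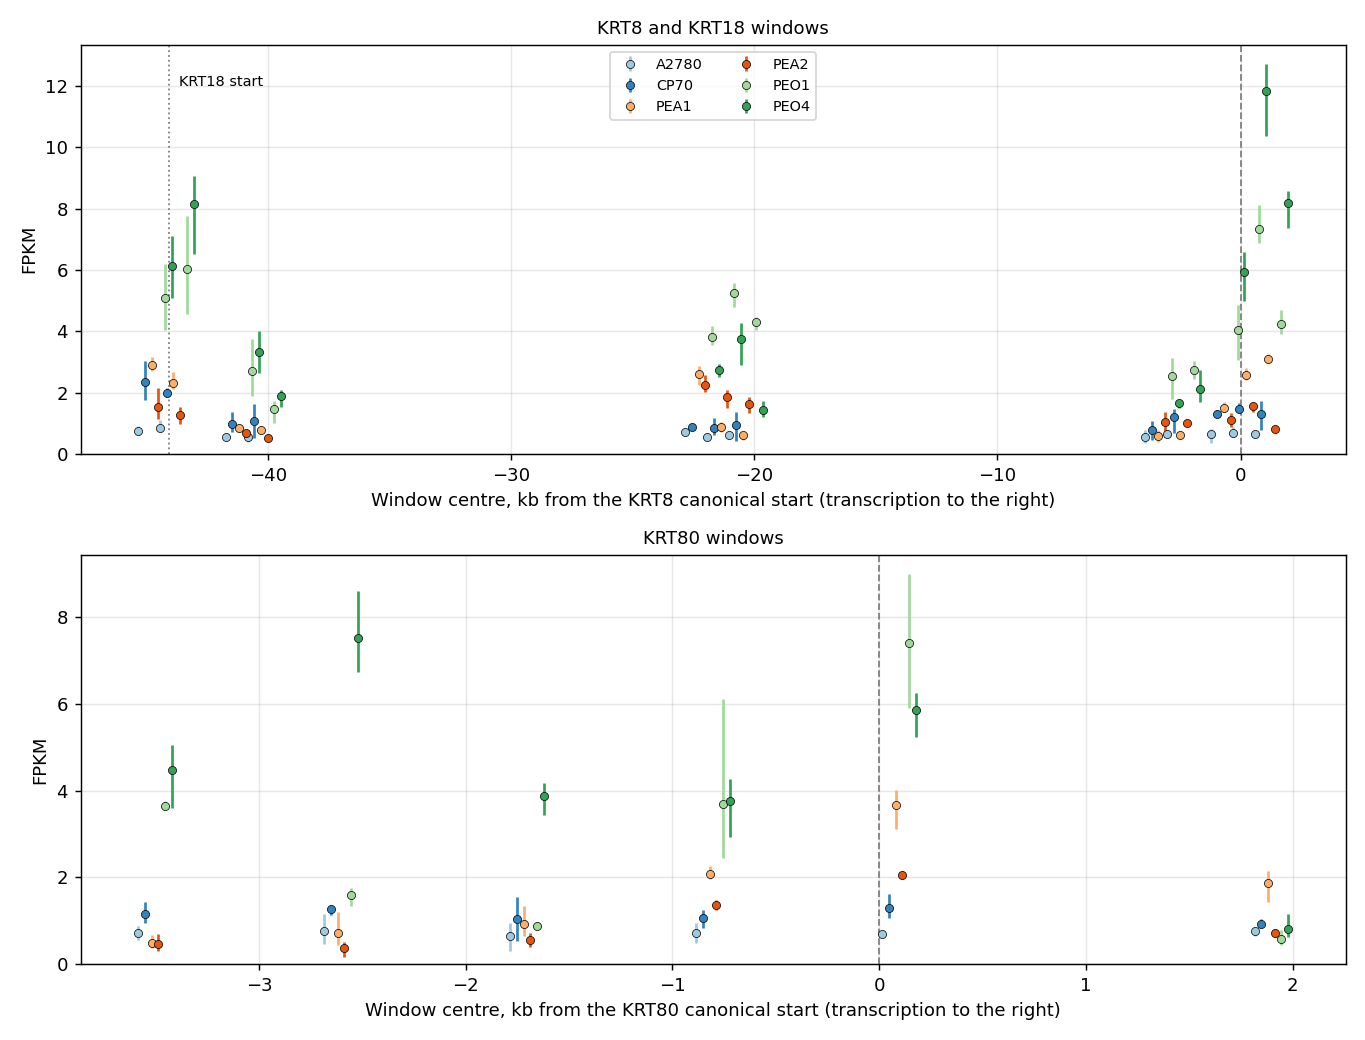
Mean FPKM of the KRT8 and KRT18 windows and of the KRT80 windows by line against distance from the canonical start in kb, with bars from the lowest to the highest of 3 libraries and points of 1 window drawn side by side. PEO4 peaks at the KRT8 start (11.8 FPKM), and PEO1 is highest at the upstream KRT8 cluster. At the KRT80 window at chr12:52587901-52588900 PEO4 stands alone at 7.51 FPKM, and at the next window upstream PEO4 overlaps PEO1.

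**Figure D4:**
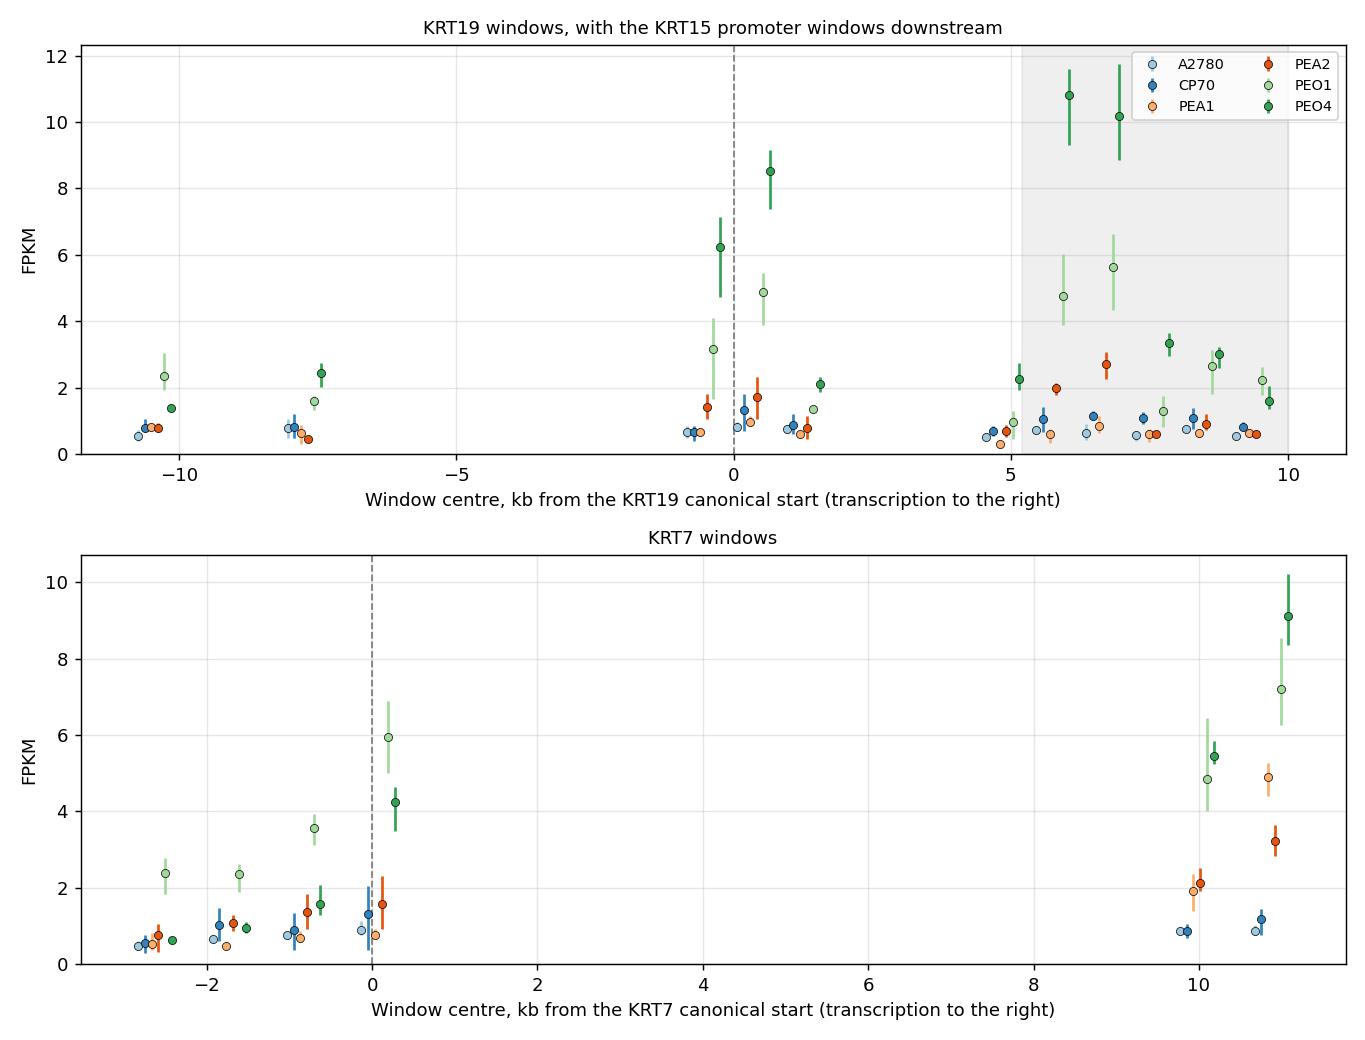
Mean FPKM of the KRT19 and KRT7 windows by line against distance from the canonical start in kb, with bars from the lowest to the highest of 3 libraries and the KRT15 promoter windows shaded. PEO4 exceeds 10 FPKM in the shaded stretch, and PEA1 reaches 4.9 FPKM at the intronic KRT7 window but 0.767 at the KRT7 start.

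The first comparison asked how CP70 differed from A2780, its parent in culture. Windows were compared with limma on log2(FPKM + 0.1) among those with a mean above 1 FPKM, and a window was called at a log2 fold change over 2 in size and a Benjamini-Hochberg adjusted p below 0.001. None of the 7 keratin windows tested was called, against 0.797% of all windows tested, and 4 of the 7 had an unadjusted p below 0.05. At adjusted p below 0.05 with any fold change, the second rule, which decides "rose" and "fell" from here on, 4 rose and none fell, beside 47.5% and 2.29% of all windows. The KRT8 start rose by 1.03 ± 0.29 (log2, SE; adjusted p = 0.00227, limma), the KRT18 start by 1.14 ± 0.26 (adjusted p = 0.000149, limma) and the KRT18 exon 1 window next to it (chr12:53343001-53344000, chosen after its values were seen) by 1.52 ± 0.26 (adjusted p = 1.84e-07, limma). The upstream KRT80 window rose by 0.76 ± 0.29 (adjusted p = 0.0246, limma). The KRT7 start (0.26 ± 0.29), the intronic KRT7 window (0.38 ± 0.29) and the KRT19 start (0.54 ± 0.29) did not pass. The median of all windows tested was 0.59, and with libraries centred on their medians the KRT8 start was 0.45 and the KRT18 start 0.56, neither past the threshold, 1 keratin window rose and none fell, and the KRT7 and KRT19 starts changed sign (-0.32 and -0.04). Without CP70 replicate 1 the KRT7 start (0.91), the intronic KRT7 window (0.65) and the KRT19 start (0.93) rose, edgeR on the recovered reads also passed the KRT7 start (0.64) and the KRT19 start (0.73), and without A2780 replicate 2 or 3 the upstream KRT80 window no longer passed.

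PEA2 against PEA1 moved keratin windows both ways, also within a gene. None of 19 windows tested was called, against 12.7% of all windows tested, and 16 had an unadjusted p below 0.05. By the second rule 8 rose and 8 fell, beside 43% and 21.4% of all windows. KRT8, KRT18 and KRT80 starts fell and KRT7 and KRT19 starts rose, and among the 8 KRT8 windows tested 2 rose and 4 fell. The KRT8 start fell by 0.68 ± 0.24 (adjusted p = 0.00739, limma), the KRT18 start fell by 0.83 ± 0.24 (adjusted p = 0.00124, limma) and the KRT80 start fell by 0.80 ± 0.23 (adjusted p = 0.00112, limma). The intron 1 window of KRT8 fell by 1.79 ± 0.24 (adjusted p = 1.47e-12, limma), from 3.01, 3.27 and 3.02 FPKM in PEA1 to 0.879, 0.751 and 0.843 in PEA2, which do not overlap. In the upstream KRT8 cluster, chosen after values were seen, the windows at chr12:53318701-53319700 and chr12:53319601-53320600 rose by 1.27 ± 0.28 and 0.97 ± 0.26 (adjusted p = 1.91e-05 and 0.00041, limma). The KRT7 start rose by 0.88 ± 0.28 (adjusted p = 0.00267, limma) and the KRT19 start by 0.72 ± 0.26 (adjusted p = 0.0101, limma), while the intronic KRT7 window fell by 0.59 ± 0.23 (adjusted p = 0.017, limma). The KRT15 promoter pair near KRT19 rose by 1.58 ± 0.25 and 1.65 ± 0.27 (adjusted p = 8.74e-10 and 7.9e-09, limma).

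The windows of the 5 Mb bins around these genes moved too in that pair. The median log2 fold change of PEA2 against PEA1 was -0.76 over 180 windows of chromosome 12 from 50 to 55 Mb and -0.63 over 200 windows of chromosome 17 from 35 to 40 Mb, against 0.31 over all windows. With the bin median removed, the KRT8 start (0.08) and the intronic KRT7 window (0.17) changed sign, the KRT18 start (-0.07) and the KRT80 start (-0.04) no longer passed, the KRT8 intron 1 window still fell by 1.03, and the KRT7 start (1.64) and KRT19 start (1.35) still rose, with 10 keratin windows higher and 1 lower. What lowers these bins was not tested. With windows centred by GC class, the KRT8 (-0.23), KRT18 (-0.43) and KRT80 (-0.33) starts and the intronic KRT7 window (-0.23) did not pass. With libraries centred on their medians, the KRT8 intron 1 window was at -2.16 and called, and the KRT7 and KRT19 starts (0.51 and 0.35) did not pass, with 5 keratin windows higher and 10 lower. Without PEA2 replicate 2 the KRT19 start did not pass, without PEA2 replicate 3 the KRT8 start did not, and without PEA1 replicate 1, PEA1 replicate 2 or PEA2 replicate 2 the intronic KRT7 window did not.

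PEO4 against PEO1 held the largest changes of the 3 pairs. Of 38 windows tested, 3 were called (7.89%), 2 higher and 1 lower, beside 8.49% of all windows tested, which is near the background. The 3 called windows exceeded 2 FPKM in libraries of a single line (KRT5 in PEO1, both KRT80 windows in PEO4) and so entered the table through the line where they are high, which makes the count a description. By the second rule 15 rose and 12 fell, beside 21.9% and 45.8% of all windows. Upstream of KRT80 the window at chr12:52587901-52588900 rose by 2.16 ± 0.17 (adjusted p = 1.92e-13, limma), a 4.48-fold difference on the scale with 0.1 FPKM added. Its neighbour (chr12:52587001-52588000) rose by 2.02 ± 0.22 (adjusted p = 5.01e-10, limma), from 0.911, 0.96 and 0.78 FPKM to 3.43, 4.18 and 4.03. The KRT80 start itself did not pass (-0.31 ± 0.14, adjusted p = 0.053, limma). The KRT5 start fell by 2.15 ± 0.21 (adjusted p = 2.12e-11, limma).

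Around the simple keratins the direction in PEO4 differed by window. The KRT8 start rose by 0.68 ± 0.12 (adjusted p = 8.88e-06, limma), its intron 1 window by 0.93 ± 0.14 (adjusted p = 3.87e-07, limma), the KRT18 start by 0.44 ± 0.15 (adjusted p = 0.0112, limma) and the KRT19 start by 0.80 ± 0.14 (adjusted p = 9.01e-06, limma). The KRT15 promoter pair near KRT19 rose by 0.86 ± 0.14 and 1.18 ± 0.14. The KRT7 start fell by 0.48 ± 0.16 (adjusted p = 0.00748, limma), and a window upstream of it (chr12:52623901-52624900, chosen after its values were seen) fell by 1.74 ± 0.28, whereas the intronic KRT7 window rose by 0.34 ± 0.13 (adjusted p = 0.0217, limma). In the upstream KRT8 cluster the window at chr12:53318701-53319700, also chosen after its values were seen, fell by 1.54 ± 0.20 (adjusted p = 1.37e-08, limma). KRT23 fell at its start by 0.52 ± 0.22 and at exon 2 by 0.85 ± 0.23. The windows at chr12:52623901-52624900 and chr12:53318701-53319700 and both KRT23 windows exceeded 2 FPKM in PEO1 libraries alone. They entered the table through the line where they are high, so their falls are descriptions. The KRT17 window did not differ past the threshold (adjusted p = 0.999, limma).

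Both KRT80 calls and the KRT5 call lay near the fold threshold of 2. Centred on library medians or quantile-normalized, the KRT7 start (-0.13 and -0.19), the KRT23 start (-0.18 and -0.12) and the KRT23 exon 2 window (-0.50 and -0.43) did not pass. Centred on library medians the median of all windows moved from -0.30 to 0.04, the upstream KRT80 window was at 2.51 and KRT5 at -1.80, short of the call, and 22 keratin windows rose and 5 fell. With bin medians removed 11 rose and 14 fell. With windows centred by GC class the upstream KRT80 window was at 1.92, short of the call, the KRT18 start (0.08), the intronic KRT7 window (0.07) and the KRT23 start (-0.40) did not pass, and the KRT80 start fell by 0.68. Without PEO1 replicate 3, PEO4 replicate 2 or PEO4 replicate 3 the KRT80 window at chr12:52587001-52588000 lost its call, and the other pair of calls remained. The KRT18 start did not pass without PEO1 replicate 3, PEO4 replicate 1 or PEO4 replicate 2, the KRT7 start did not without PEO1 replicate 1 or PEO4 replicate 3, the intronic KRT7 window did not without PEO1 replicate 1, PEO1 replicate 3 or PEO4 replicate 2, and the KRT23 start did not without PEO1 replicate 1, PEO1 replicate 2 or any 1 of the PEO4 libraries (-0.56 to -0.12 over all settings where it failed).

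Tested against each other, the pairs differed at some keratin windows. The difference of the changes (PEO4 against PEO1 minus PEA2 against PEA1) was 2.92 ± 0.40 (log2, SE) at the upstream KRT80 window, 2.72 ± 0.26 at the KRT8 intron 1 window and -2.08 ± 0.40 at the KRT5 start (adjusted p = 2.36e-08, 2.91e-12 and 1.26e-05, limma). At the KRT8 start it was 1.36 ± 0.25 and at the KRT18 start 1.28 ± 0.29, both past adjusted p of 0.05 but short of the call, and at the KRT19 start it was 0.08 ± 0.31 and did not pass. Of all windows tested for this difference 26.6% were called. PEA2 against PEA1 minus CP70 against A2780 was -2.62 ± 0.36 at the KRT8 intron 1 window (adjusted p = 8.29e-10, limma), with 12.8% of all windows called. The KRT5 start differed by -2.77 ± 0.34 between PEO4 against PEO1 and CP70 against A2780 (adjusted p = 6.41e-08, limma), with 8.12% of all windows called. The KRT5 start was itself tested only in PEO4 against PEO1 among the pairs, since its mean was below 1 FPKM in the others. This start and the upstream KRT80 window had already been called in PEO4 against PEO1, from the same PEO libraries. The KRT5 start exceeded 2 FPKM only in PEO1 libraries and the KRT80 window only in PEO4 libraries. Their differences between pairs are therefore descriptions, and the p-values add no separate support.

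Scaling moved several of these differences, in refits added after the values were seen. For PEO4 against PEO1 minus PEA2 against PEA1, the KRT8 intron 1 window was at 3.52 and 3.37 with median centring and quantile normalization, but at 1.98 with bin medians removed and 1.85 with GC classes, both short of the call. The KRT8 start was at 0.62 with bins removed and did not pass with GC classes (0.50), and the KRT18 start passed with neither (0.53 and 0.40). The KRT19 start changed sign between settings, at 0.88 with median centring and -1.01 with GC classes, both past adjusted p of 0.05. The upstream KRT80 window was called in all 4 settings (2.18 to 3.72), whereas the KRT5 start was short of the call with median centring (-1.28) and quantile normalization (-1.04). For PEA2 against PEA1 minus CP70 against A2780, the KRT8 intron 1 window was at -1.16 with bins removed, short of the call, and was called in the other 3 settings (-2.71 to -2.16). The KRT5 difference from CP70 against A2780 was called in all 4 (-2.84 to -2.09). The KRT7 start, not called before, was called for PEO4 against PEO1 minus PEA2 against PEA1 with bins removed (-2.10) and GC classes (-2.45).

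**Figure D5:**
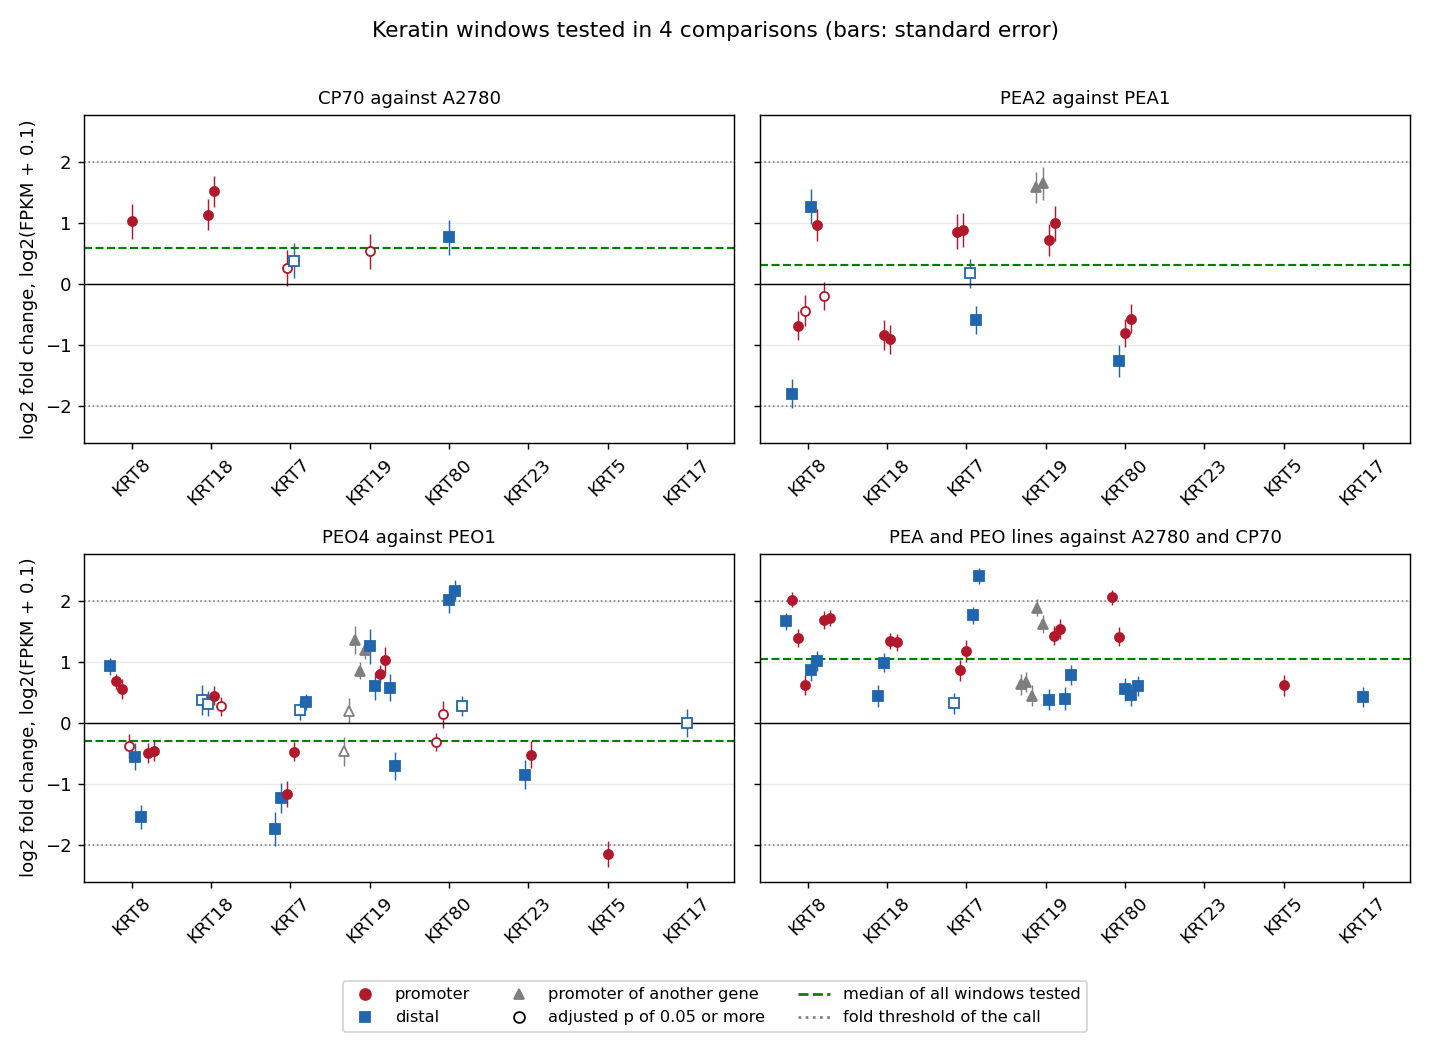
Log2 fold change of each keratin window tested in 4 comparisons, by gene, with its standard error, filled where the adjusted p is below 0.05 and with the median of all windows as a dashed green line. KRT80 upstream windows (2.16 and 2.02) and the KRT5 start (-2.15) pass the dotted fold threshold in PEO4 against PEO1, and the KRT8 and KRT18 start windows lie below 0 in PEA2 against PEA1 and above 0 in CP70 against A2780.

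The PEA and PEO lines were then compared with A2780 and CP70 over all 18 libraries, where the libraries and not the lines are the replicates. Of 34 keratin windows tested, 3 were called, all higher (8.82%), beside 17.1% of all windows tested. These were the intronic KRT7 window (2.40 ± 0.13, adjusted p = 1.21e-24, limma), the KRT80 start (2.05 ± 0.13, adjusted p = 5.63e-22, limma) and the KRT8 start (2.02 ± 0.13, adjusted p = 5.95e-22, limma). None of these 3 exceeded 2 FPKM in an A2780 or CP70 library, so they entered the table through the lines where they are high. By the second rule 33 rose and none fell, beside 83.6% and 4.56% of all windows. Most other keratin windows also exceeded 2 FPKM in no A2780 or CP70 library. Both counts are therefore descriptions that the filter shapes, and the p-values add no separate support. The median keratin window changed by 1.00, against 1.05 for all windows. The KRT19 start rose by 1.43 ± 0.15, the KRT18 start by 1.34 ± 0.13, the KRT7 start by 1.18 ± 0.18 and the KRT5 start by 0.62 ± 0.17 (adjusted p = 1.19e-12, 1.34e-13, 3.84e-08 and 0.000882, limma). With libraries centred on their medians, which moved the median of all windows to -0.13, 9 keratin windows rose and 14 fell, and with bin medians removed 15 rose and 6 fell. Centred on medians, the intronic KRT7 window (1.21), the KRT80 start (0.87) and the KRT8 start (0.83) rose, the KRT18 start (0.15) and KRT19 start (0.24) did not pass, and the KRT7 start (-0.01) and KRT5 start (-0.57) changed sign. With the 6 line means as the samples no keratin window was called, the intronic KRT7 window and the KRT80 start still passed 0.05 (adjusted p = 0.0167 and 0.0368, limma), and the KRT8, KRT19, KRT18, KRT7 and KRT5 starts did not (adjusted p = 0.0544, 0.174, 0.211, 0.255 and 0.629, limma). Without CP70 replicate 1 the intronic KRT7 window (2.26) was the only call left.

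The last comparison set the resistant against the sensitive line of each pair, using 1 mean per line and a block for the pair. No window was called, 0% of the 74141 tested, and 1.38% had an unadjusted p below 0.05. Among 34 keratin windows 2 did, the KRT15 promoter pair near KRT19, at 1.08 ± 0.48 and 1.08 ± 0.49 (unadjusted p = 0.0293 and 0.0317, adjusted p = 1 and 1, limma over 6 line means). The KRT19 start was higher in all 3 resistant lines by their means, at 0.69 ± 0.48 (adjusted p = 1, limma). The KRT8 start was at 0.34 ± 0.48 and the KRT7 start at 0.22 ± 0.50.

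Few other keratin genes were open. Of 47 further keratin genes, KRT4 and KRT15 had a start window in the table. KRT4, of stratified lining epithelium, held 2.23 ± 0.539 FPKM in PEO4 and 1.11 ± 0.373 in PEO1 and rose by 0.96 (adjusted p = 0.00156, limma). Genes whose products anchor keratin filaments at desmosomes and hemidesmosomes were open more widely, with all 13 start windows in the table. In the PEA and PEO lines against A2780 and CP70, 12 of the 13 rose and 7 were called, beside 83.6% and 17.1% of all windows, with a median of 2.21 against 1.05 over all windows. PLEC (plectin, the linker at hemidesmosomes) changed by 3.09, DSC2 (desmocollin 2, a desmosomal cadherin) by 2.93, DSP (desmoplakin, the desmosomal plaque linker) by 2.21, and PKP1 (plakophilin 1) by 0.31, which did not pass. The background is all windows, not start windows alone, and these genes were not examined with line means or other scalings. Relative to the library median, JUP (plakoglobin) was lower in PEA1 and PEA2 (2.86 and 1.71) than in A2780 and CP70 (3.63 and 5.33). PLEC was higher there (7.62 and 4.06, against 1.49 and 2.36). In PEO4 against PEO1 6 of 13 rose and 4 fell, beside 21.9% and 45.8% of all windows, with PKP1 down (-1.33). The largest rises were FAM83H, a keratin-organising protein, by 1.79, EPPK1 by 1.58 and PLEC by 1.39. These starts lie together at chr8:144815401-145014400, so they are not separate places, and the part of that region was not tested. In PEA2 against PEA1 5 of 12 rose and 1 fell, with PKP3 (plakophilin 3) up by 2.27. Of all windows 43% rose in that pair, so the share that rose was near the background, as were the 5 of 9 that rose in CP70 against A2780, beside 47.5%.

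Among other intermediate filament genes, 7 of 10 had a start window in the table. In PEA2 against PEA1, 3 of 7 fell and none rose, beside 21.4% and 43% of all windows, and VIM, the filament of mesenchymal cells, fell by 2.58 from 10.2 ± 1.49 to 1.6 ± 0.1 FPKM (adjusted p = 2.93e-28, limma). In PEO4 against PEO1 VIM rose by 0.89. The nuclear lamin gene LMNA fell by 1.24 in PEA2 and rose by 0.99 in CP70.

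The lines' identity was checked against markers. The summed start windows of 5 of 6 epithelial and serous markers (PAX8, WT1, EPCAM, CDH1 and CLDN4, with MUC16 not in the table) ran from 46.7 to 49.6 FPKM in PEO4, 44 to 46.1 in PEO1, 10.9 to 13.4 in PEA2, 6.47 to 8.6 in PEA1, 5.36 to 6.23 in CP70 and 3.75 to 4.53 in A2780. In FPKM the PEO lines were highest and A2780 lowest, as at the KRT8, KRT18, KRT19 and KRT80 starts. Relative to the library median, PEA2 was lowest at KRT8 and KRT18, PEA1 lowest at KRT19 and PEA1 highest at KRT80. The marker sums were taken in FPKM only. Single markers varied: CLDN4 was lower in PEA1 (0.279 ± 0.0822 FPKM) than in A2780 (0.695 ± 0.186), and PAX8 was higher (3.37 ± 0.116 against 0.61 ± 0.206). The 4 mesenchymal markers (VIM, ZEB1, CDH2 and FN1) summed to 21.3 to 28.4 FPKM in PEA1, 17.7 to 21.1 in PEO4, 17.2 to 20.7 in PEO1, 9.83 to 12.1 in PEA2, 8.2 to 13.9 in CP70 and 6.73 to 9.33 in A2780. Relative to the library median this order did not hold for each marker. VIM was 0.607 in PEO1 and 1.47 in PEO4, against 3.59 in A2780 and 5.44 in CP70. In the same order of lines ZEB1 was 1.13 and 2.12, against 2.5 and 3.11, and CDH2 was 2.02 and 1.56, against 2.91 and 2.01. FN1 went the other way, at 2.86 and 3.22 against 2.52 and 1.8. No start window of the 3 leukocyte and 3 endothelial markers was in the table, 1 endothelial marker having no canonical start. The part of these markers in the keratin levels was not tested.

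The genes whose start windows were most like the keratins over the 18 libraries were listed as a description, by Pearson's r of FPKM among 12540 start windows. For KRT7 they were RAB25 (r = 0.958), SPTBN5 (0.953) and ZFP92 (0.946), for KRT8 PDCD5 (0.989), SLC16A5 (0.987) and LGALS3BP (0.985), and for KRT18 STX5 (0.985), PPP1R35 (0.982) and GALK1 (0.982). For KRT19 they were PRSS22 (0.972), SFN (0.968) and TINAGL1 (0.968). KRT80 was nearest to the start shared by ADAL and LCMT2 (0.985), and KRT5 to TAFAZZIN (0.95). Among the 6 keratin starts compared (KRT23 was not) KRT8 and KRT18 were the closest (r = 0.965), followed by KRT8 and KRT80 (0.93), and KRT5 was the least like the others, at 0.623 with KRT8 to 0.787 with KRT7. The 3 libraries of a line are replicates of that line and not separate lines, so these values describe mainly 6 lines.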

How the data were processed

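ATAC-seq libraries of 6 cell lines (3 replicates each) were analysed from 1 table. Per the study's methods, the authors removed duplicates with Picard, kept uniquely aligned paired reads (Bowtie2, hg19), dropped mitochondrial and blacklisted regions, and assigned reads to 1 kb windows. Tool versions and any transposase shift are not given in the sources used here. The deposited values are FPKM, which equal RPM because every window is 1 kb long. All values (100%, tolerance 0.01) were whole multiples of 1 read, which gave the reads. Windows step by 900 bp. Gene spans and starts came from GENCODE release 44 mapped to GRCh37, and sequence from GRCh37.

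Groups came from the labels. Pairs were fitted over 6 libraries with limma 3.58.1 (R 4.3.3, lmFit and eBayes with a trend) on log2(FPKM + 0.1) for windows with a mean above 1 FPKM, with Benjamini-Hochberg adjustment over all windows tested; the study weighted counts with voom instead. Fold changes on this scale understate low windows. Windows were named by a rule: start windows, the largest called windows, and the highest distal window per gene. The members and lists were chosen with earlier results of these data known. Alternatives covered the pseudocount, filters, scaling, 5 Mb bins, GC, thresholds, a replicate block, left-out libraries or lines, and edgeR 4.0.16 on the reads, which called 369 windows in CP70 against A2780 (limma 296), 9777 in PEA2 against PEA1 (limma 8374) and 7524 in PEO4 against PEO1 (limma 6594). The fit was tested on simulated data. Without molecular identifiers reads need not be separate molecules. The promoter sequences of some members are not reported here.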

Additional observations from a re-analysis of the deposited data

Results flagged for a closer look

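The change of the resistant line was called as different between pairs at 3 keratin windows, by a test of the difference itself over the 12 libraries of both pairs (limma, difference over 2 in size on the log2 scale and adjusted p below 0.001). At the KRT8 intron 1 window (chr12:53297101-53298100) the change of PEA2 against PEA1 was lower than that of CP70 against A2780 by a difference of -2.62, and the change of PEO4 against PEO1 exceeded that of PEA2 against PEA1 by 2.72. At the KRT5 start window the change of PEO4 against PEO1 differed by -2.77 from that of CP70 against A2780 and by -2.08 from that of PEA2 against PEA1. At the KRT80 window upstream of the start (chr12:52587901-52588900) the change of PEO4 against PEO1 exceeded that of PEA2 against PEA1 by 2.92. KRT5 in A2780, CP70, PEA1 and PEA2 rested on 7 to 32 reads per library, and the KRT80 window in PEA2 on 4 to 9. The KRT5 start exceeded the 2 FPKM filter of the table only in PEO1 libraries, and this KRT80 window only in PEO4 libraries. Both entered through the line where they are high, so their differences are descriptions and the tests add no separate support. The KRT5 start was not tested within CP70 against A2780 or PEA2 against PEA1, where its mean was below 1 FPKM. Among 4 other scalings, each added after the values were seen, the KRT8 difference of -2.62 lost its call with bin medians removed (-1.16), that of 2.72 with bin medians removed (1.98) and with GC classes (1.85), and the KRT5 difference of -2.08 with median centring (-1.28) and quantile normalization (-1.04), while the differences of -2.77 and 2.92 kept theirs. Groups of 3 libraries are too small for the test of single outlying samples.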

How the results depend on the processing

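Of 958 refits of 44 named values, 817 kept their direction and their side of adjusted p 0.05, 99 lost it, 15 gained it and 27 changed sign. Sign changes came from rescaling alone. With median centring, quantile normalization and 5 Mb bin medians removed, in that order, CP70 against A2780 gave -0.32, -0.10 and -0.49 at the KRT7 start and -0.19, -0.0070 and -0.37 at the KRT7 intron, and the KRT19 start gave -0.038 with median centring and -0.22 with bins removed. In PEA2 against PEA1 bins removed gave 0.079 at the KRT8 start and 0.17 at the KRT7 intron, and in PEO4 against PEO1 median centring gave 0.029 at the KRT80 start. In the PEA and PEO lines against A2780 and CP70 the same 3 settings gave -0.57, -0.56 and -0.22 at KRT5, -0.73, -0.74 and -0.39 at the upstream KRT80 window, -0.80, -0.84 and -0.45 at the upstream KRT19 window, and -0.76, -0.77 and -0.41 at KRT17. The first 2 gave -0.0085 and -0.045 at the KRT7 start and -0.20 and -0.23 at the KRT18 distal window. The cause was not tested.

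Counts of called windows moved as follows. CP70 against A2780 went from 0 to 3 with thresholds of 1 and 0.05. PEA2 against PEA1 went from 0 to 1 with median centring, quantile normalization or GC classes, 3 with bins removed and 5 with the lower thresholds. PEO4 against PEO1 went from 3 to 0 with a pseudocount of 1 or a minimum mean of 5 FPKM, 1 with GC classes and 11 with the lower thresholds, and stayed at 2 to 3 without any 1 library. The PEA and PEO lines against A2780 and CP70 went from 3 to 0 with a pseudocount of 1, median centring, quantile normalization, bins removed or 6 line means as samples, 1 with the upper depth limit, 5 with GC classes and 17 with the lower thresholds, and ranged from 1 (without CP70 replicate 1) to 4 without any 1 library. Without line A2780, PEO1 or PEO4 the count was 1, without CP70 6 and without PEA1 8. A minimum mean of 5 FPKM left no keratin window to test outside the PEO pair. With the replicate block the counts were 0, 0, 3 and 3 in the same comparisons; same-numbered libraries correlated at -0.41 to 0.045 in their deviations, so the numbers do not pair them. Depth limits the low windows, where 3 reads are worth up to 0.334 FPKM in PEO1.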
